A study of Mus musculus with 6 samples.

Results

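A set of 9 marker genes of deep cortical layer neurons, Tbr1, Ntsr1, Foxp2, Fezf2, Bcl11b, Tle4, Etv1, Crym and Syt6, was examined in prefrontal cortex of 16p11.2 duplication mice. They were taken by symbol as known markers of layers 5 and 6, and are 9 of 45470 genes with a usable name in the count table. Prefrontal cortex homogenate was sequenced at postnatal week 8 in 3 wild type libraries and 3 libraries from mice heterozygous for the duplication. The duplicated segment matches human 16p11.2 and lies on mouse chromosome 7. The line began on a hybrid of C57BL/6N with 129Sv, and 10 generations of backcrossing put it on C57BL/6, a background that both groups share. The labels give no transgene, treatment, litter, batch or sex, nor whether libraries stand for separate animals. The p-values therefore reflect only how these libraries differ, which may be technical.

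The neurons of the deep layers send the axons that leave the cortex. Layer 5 holds the subcerebral neurons that project to brainstem and spinal cord, and layer 6 holds the corticothalamic neurons. During development Fezf2 and Bcl11b (the factor CTIP2) specify the subcerebral fate, while Tbr1 promotes the layer 6 fate and represses Fezf2 and Bcl11b. In the adult cortex these factors are used as markers of the deep layers. The ratio of deep to superficial markers can vary with how much of each layer a tissue piece holds, which was not measured here.

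The members were grouped as 5 marker genes of layer 6 and 4 of layer 5, and they need not be limited to those layers. Of the layer 6 genes, Tbr1 (T-box factor), Foxp2 (forkhead repressor) and Tle4 (Groucho corepressor) act in the nucleus, Ntsr1 is a receptor for the peptide neurotensin, and Syt6 is a synaptotagmin, a membrane trafficking protein. Of the layer 5 genes, Fezf2 and Bcl11b are zinc finger factors, Etv1 is an ETS factor and Crym encodes mu-crystallin, a cytosolic binding protein of thyroid hormone, which is not limited to layer 5.

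Among pairs of layer 6 members, Ntsr1 and Syt6 had the most similar values across libraries (root mean square difference of centred log2 CPM, 0.1818). Foxp2 and Syt6 (0.1834) and Tle4 and Syt6 (0.1877) were almost as close. Of all member pairs the nearest was Bcl11b and Etv1 (0.1236). The 250 bases before the Ntsr1 and Syt6 start sites are shown because that pair ranked first in layer 6. They are from RefSeq on GRCm38.p6, on the plus strand. The Ntsr1 window is chr2:180499726-180499975, and that of the first of 3 Syt6 starts is chr3:103574995-103575244. Capitals mark CG dinucleotides.
Ntsr1: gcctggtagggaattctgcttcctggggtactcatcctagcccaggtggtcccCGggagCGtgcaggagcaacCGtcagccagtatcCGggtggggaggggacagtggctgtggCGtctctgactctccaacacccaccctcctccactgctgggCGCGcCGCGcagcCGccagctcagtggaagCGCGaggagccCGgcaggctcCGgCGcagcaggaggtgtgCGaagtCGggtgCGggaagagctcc
Syt6: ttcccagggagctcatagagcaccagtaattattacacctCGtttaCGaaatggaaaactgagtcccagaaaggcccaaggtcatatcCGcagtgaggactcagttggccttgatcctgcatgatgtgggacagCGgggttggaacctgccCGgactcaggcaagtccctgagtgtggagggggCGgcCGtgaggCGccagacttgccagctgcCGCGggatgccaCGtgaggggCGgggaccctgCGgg
The Ntsr1 window holds 18 CG dinucleotides and the Syt6 window 13, where the median of 32851 promoter windows of this length was 6, with quartiles of 2 and 16. The T-box core GGTGTGA, searched on both strands, was in 3.33% of all windows and in 0 of the 7 members with an entry (11 windows). The forkhead core TGTTTAC was in 3.17% of all windows and also in 0 of the 7. The E-box CATCTG was in 14.4% of all windows and in 1 member, Etv1. These counts describe the letters of these windows only.

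All 9 members were detected in every library and passed the filter on low counts. Total gene counts were 12988457 to 21872271 per library, and 15398 genes were tested. As deposited, 65.1% of names sit beside the counts of another gene, and each value below comes from the re-aligned line. There Tbr1, Ntsr1, Foxp2 and Tle4 stood beside lines with 0 counts and Syt6 beside a line with 1 count over the 6 libraries. After re-alignment their lines held 6244, 362, 2376, 7813 and 2507 counts. Crym stood beside a line with 1723 counts, and its re-aligned line held 10308. Genes of the duplicated segment followed the labels: Aldoa was at 1492 to 1828 CPM (counts scaled to library size with TMM factors, a normalisation for composition) in wild type and at 2649 to 3694 CPM in duplication libraries, and Mapk3 at 64.1 to 73.5 CPM and 91.9 to 126.2 CPM. Of 10 such genes 0 passed in edgeR and 10 had an unadjusted p under 0.05. Their median estimate was 0.78 (log2), and the smallest p values were those of Coro1a (0.89 ± 0.12, SE) and Taok2 (0.71 ± 0.10). DESeq2 called 9 of the 10. Xist, the RNA of the inactive X chromosome, had 0 counts in replicate 1 of each group, where the Y-linked gene Ddx3y had 982 in wild type and 2147 in duplication. The other 4 libraries had 2090 to 3531 Xist counts, with 0 and 5 Ddx3y counts in replicate 3 of wild type and duplication. Replicate 2 of wild type and duplication held both, with 71 and 77 Ddx3y counts beside 2130 and 2090 of Xist, and whether these libraries hold RNA of more than 1 animal was not tested.

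Per kilobase of annotated exon, Crym was the most abundant member, at 32.7 ± 3.11 RPKM (mean ± SD, n = 6 libraries). Tle4 at 15.0 ± 3.19, Tbr1 at 12.7 ± 4.21, Bcl11b at 11.6 ± 2.49 and Fezf2 at 11.6 ± 1.82 RPKM formed a middle range in which the values of each neighbouring pair overlapped between libraries. Syt6 at 4.75 ± 1.65 and Etv1 at 4.30 ± 0.79 RPKM overlapped as well, and so did Foxp2 at 1.59 ± 0.60 and Ntsr1 at 1.04 ± 0.42 RPKM. The ranges did not overlap between Crym and Tle4, between Fezf2 and Syt6, or between Etv1 and Foxp2. Exon lengths are those of a GENCODE annotation that need not be the one used for counting.

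None of the 9 members passed the test between genotypes, and 8 of 9 had lower estimates in the duplication libraries. Their median log2 fold change, duplication over wild type, was -0.35, against 0.005 over all tested genes. Over all genes edgeR called 0% of 15398, so 0 of 9 is the background share. With an unadjusted edgeR p under 0.05 there were 3 members, Tbr1, Ntsr1 and Syt6, each with a lower estimate, where 12.2% of all genes had such a p with a lower estimate and 19.2% in either direction. DESeq2 called 1 member lower, Tbr1 (adjusted p = 0.0391; 1.85% of all genes called), and limma-voom 0. In bulk tissue, fewer cells of a type and less RNA per cell cannot be told apart.

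Tbr1 (ENSMUSG00000035033.15, mm10 chromosome 2, 61802930 to 61814114) had 91.6, 57.2 and 105.0 CPM across wild type replicates 1 to 3 and 45.9, 58.7 and 60.0 CPM across duplication replicates 1 to 3, the order kept below. Wild type replicates 1 and 3 were high, and wild type replicate 2 fell inside the range of the duplication libraries. The log2 fold change was -0.63 ± 0.20 (SE), a fold of 0.648, with a 95% interval of -1.08 to -0.18 (edgeR adjusted p = 0.177).

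Ntsr1 (ENSMUSG00000027568.9, chromosome 2, 180499976 to 180544980) was at 3.81, 4.17 and 7.10 CPM in wild type and at 2.14, 3.58 and 3.59 CPM in duplication libraries. It was the single member whose groups did not overlap, as for 22.2% of all tested genes. With 47 to 97 counts per library it was also the member measured with the least depth. Its log2 fold change was -0.73 ± 0.28, with an interval of -1.37 to -0.08 (edgeR adjusted p = 0.221).

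Syt6 (ENSMUSG00000027849.18, chromosome 3, 103575231 to 103645569) was at 25.2, 28.0 and 45.9 CPM in wild type and at 19.0, 20.8 and 27.4 CPM in duplication libraries. Wild type replicate 3 was far above the other 5, and duplication replicate 3 overlapped wild type replicate 1. The log2 fold change was -0.57 ± 0.22, with an interval of -1.07 to -0.07 (edgeR adjusted p = 0.221). Syt6 shares 505 exon bases with Atg4a-ps on the opposite strand, a gene with 33 counts over the 6 libraries.

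Foxp2 (ENSMUSG00000029563.16, chromosome 6, 14901349 to 15441977) was at 19.0, 23.8 and 45.5 CPM in wild type and at 21.3, 21.0 and 24.9 CPM in duplication libraries. The wild type libraries held both the highest and the lowest value. Its log2 fold change was -0.40 ± 0.27 (-1.01 to 0.21), and 0.06 without wild type replicate 3.

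Tle4 (ENSMUSG00000024642.17, chromosome 19, 14448150 to 14598051) was at 73.3, 92.1 and 118.2 CPM in wild type and at 66.8, 79.9 and 81.8 CPM in duplication libraries, a log2 fold change of -0.31 ± 0.16 (-0.67 to 0.04). As for Tbr1, Ntsr1 and Syt6, wild type replicate 3 was the highest library and duplication replicate 1 the lowest.

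**Figure D1:**
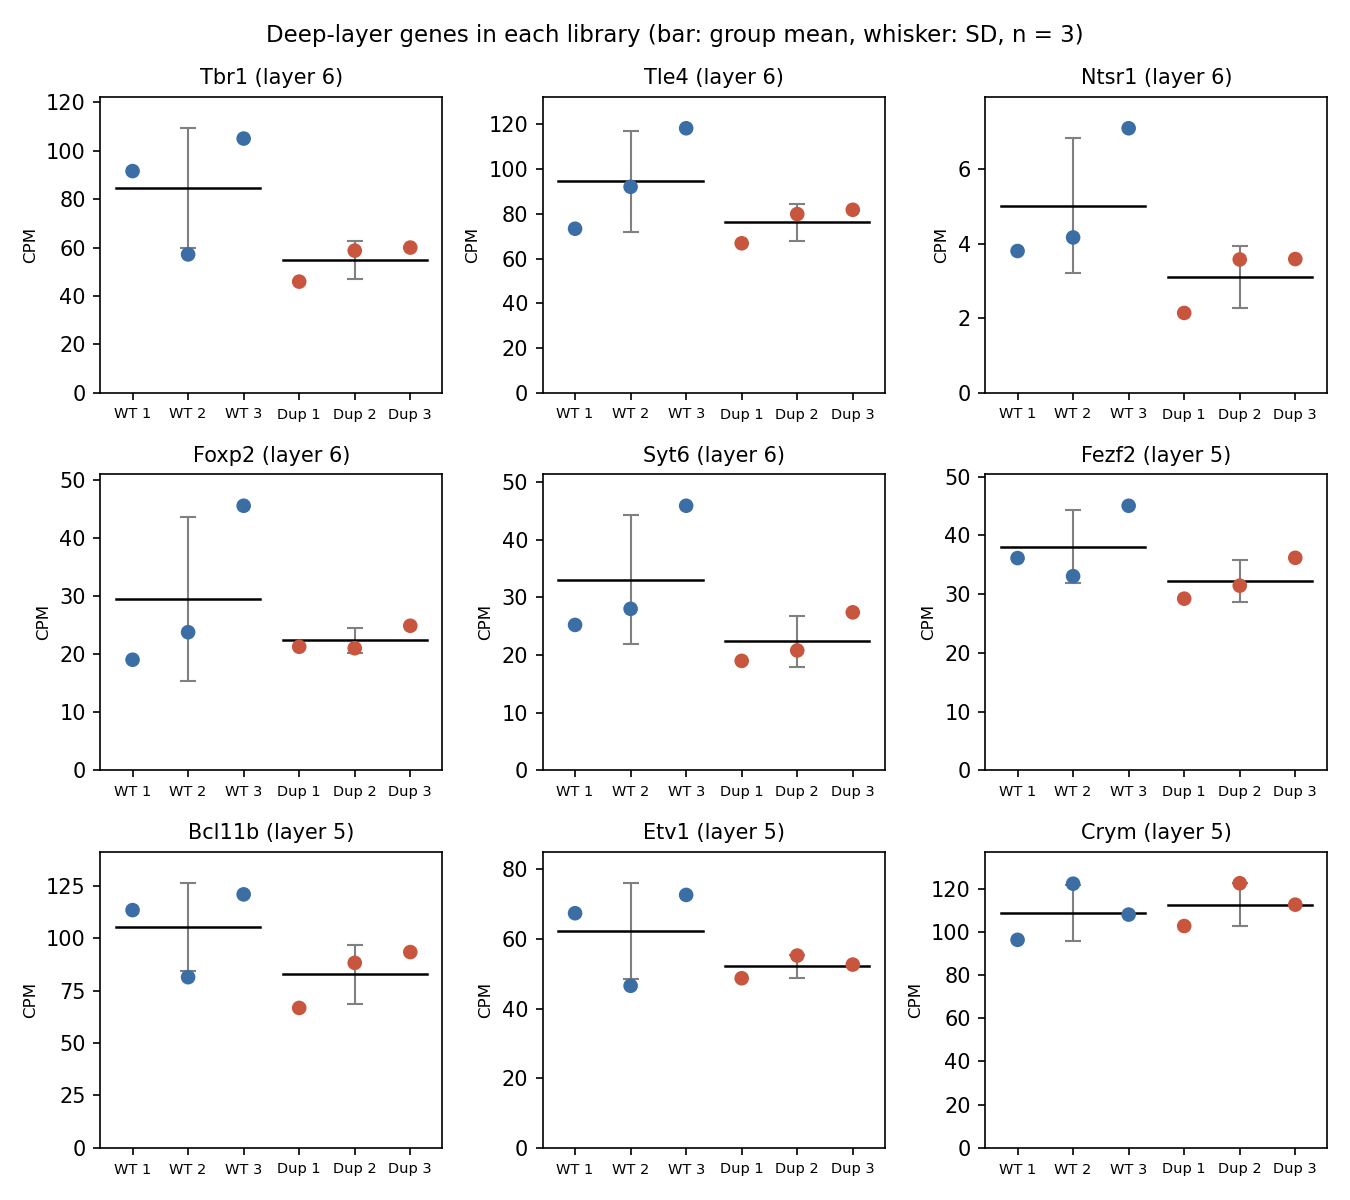
CPM (vertical axes, each from 0) of each member in the 3 wild type (WT, blue) and 3 duplication (Dup, red) libraries, with the group mean as a bar and the SD as a whisker. Wild type replicate 3 is the highest library for 8 of the 9 genes, and only the Ntsr1 groups do not overlap.

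Of the layer 5 genes, Bcl11b (ENSMUSG00000048251.15, chromosome 12, 107910403 to 108003602) was at 113.3, 81.4 and 120.8 CPM in wild type and at 66.7, 88.2 and 93.3 CPM in duplication libraries. Like Tbr1 it was high in wild type replicates 1 and 3, while wild type replicate 2 fell among the duplication libraries. Its log2 fold change was -0.35 ± 0.16 (-0.71 to 0.02; edgeR adjusted p = 0.274). Etv1 (ENSMUSG00000004151.17, chromosome 12, 38779380 to 38870484) had the same order within wild type, at 67.4, 46.6 and 72.6 CPM against 48.7, 55.2 and 52.6 CPM, with wild type replicate 2 the lowest of all 6. Its log2 fold change was -0.25 ± 0.14 (-0.58 to 0.07).

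Fezf2 (ENSMUSG00000021743.6, chromosome 14, 12342094 to 12348189) was at 36.2, 33.1 and 45.1 CPM in wild type and at 29.2, 31.5 and 36.2 CPM in duplication libraries, and the groups overlapped. Its log2 fold change was -0.24 ± 0.12 (-0.52 to 0.04). Crym (ENSMUSG00000030905.5, chromosome 7, 120186380 to 120202111) was the single member with an estimate above 0. It was at 96.3, 122.3 and 108.0 CPM in wild type and at 102.7, 122.5 and 112.6 CPM in duplication libraries, a log2 fold change of 0.05 ± 0.10 with an interval of -0.18 to 0.27. Crym lies on the chromosome of the duplication, 6.49 Mb before the first interval gene, Slx1b, and its interval leaves out the 0.78 that was the median of 10 interval genes.

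**Figure D2:**
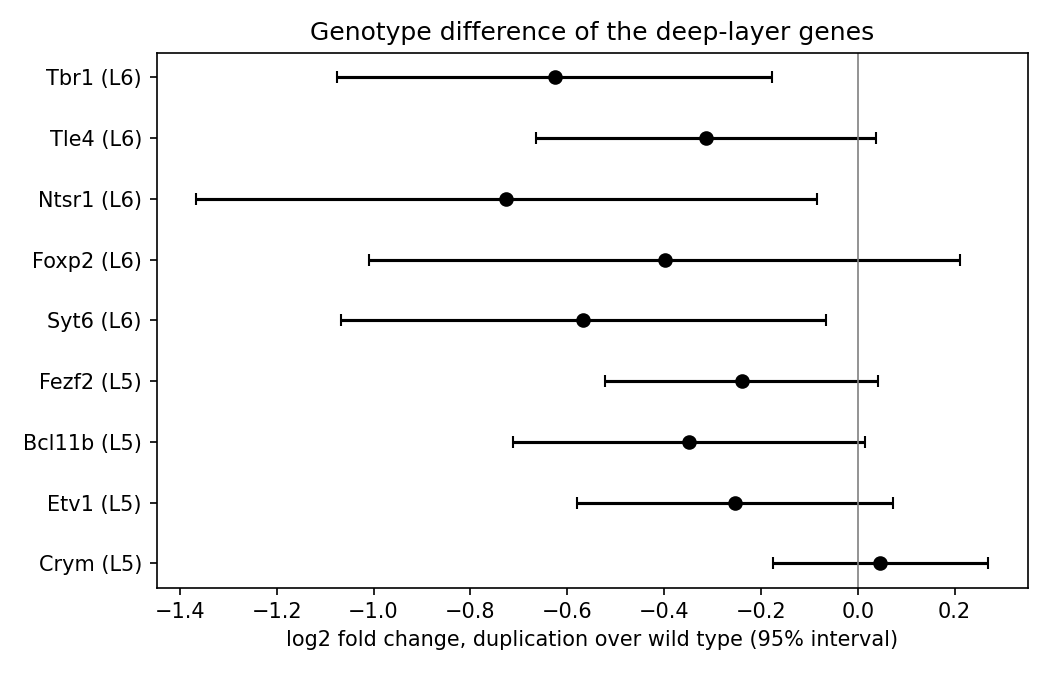
Log2 fold change of duplication over wild type (horizontal axis) for each member, with the edgeR 95% interval; L5 and L6 mark the layer. The estimates of 8 genes lie below 0, and the intervals of Tbr1, Ntsr1 and Syt6 leave out 0 before adjustment over all genes.

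The members varied more between wild type libraries than the typical gene, a comparison made after the values were seen, as were the averages by layer and the counts of highest and lowest library. The median SD of log2 CPM was 0.34 over the 9 members in wild type and 0.16 in duplication libraries, against 0.14 and 0.10 over all tested genes. Wild type replicate 3 was the highest library for 8 of 9 members and for 19.4% of all tested genes, and duplication replicate 1 the lowest for 6 of 9 and 20.6%. Against the mean of the other 2 wild type libraries, replicate 3 was 2.13-fold for Foxp2, 1.76-fold for Ntsr1, 1.72-fold for Syt6, 1.45-fold for Tbr1 and 1.44-fold for Tle4. The layer 5 genes Fezf2, Etv1 and Bcl11b were at 1.30-fold, 1.30-fold and 1.26-fold, and Crym at 0.995-fold. As log2 values centred over the 6 libraries, the 5 layer 6 members averaged -0.04, 0.01 and 0.74 for wild type replicates 1 to 3 and -0.47, -0.19 and -0.05 for duplication replicates 1 to 3. The 4 layer 5 members averaged 0.10, -0.10 and 0.27 in the former and, rounded, -0.26, -0.02 and 0.00 in the latter.

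**Figure D3:**
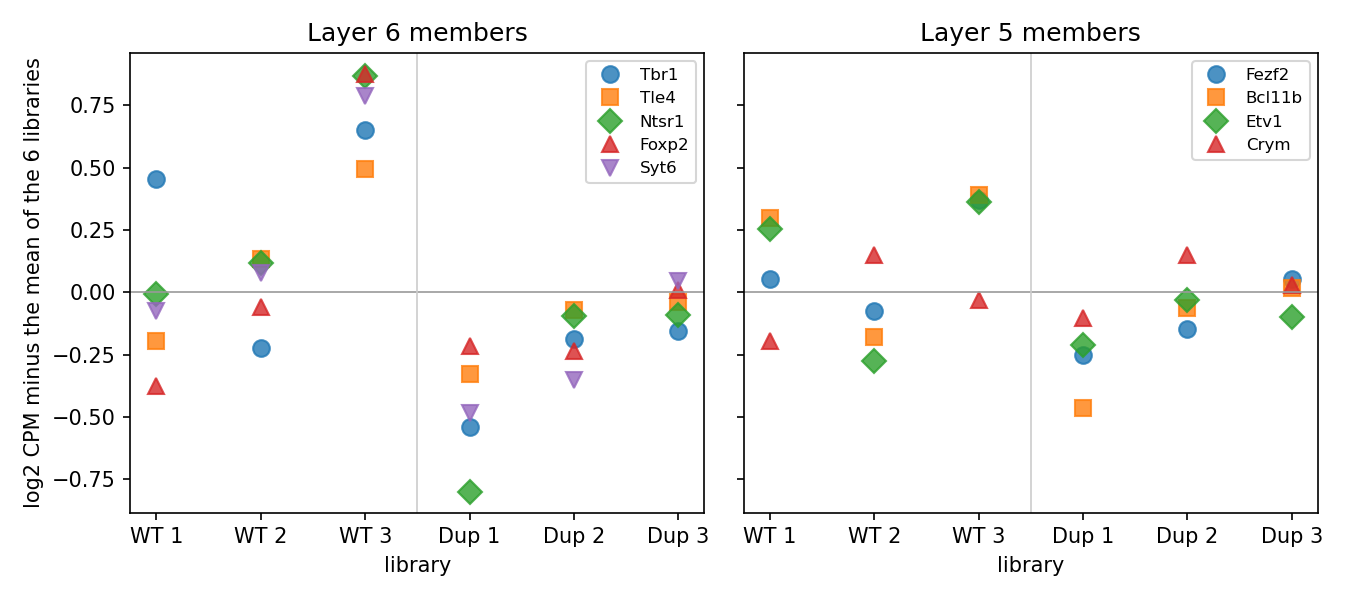
Log2 CPM of each member minus its mean over the 6 libraries (vertical axis) by library (WT, wild type; Dup, duplication), for layer 6 members on the left and layer 5 members on the right. The layer 6 members stand at 0.49 to 0.88 in wild type replicate 3, and in wild type replicate 1 Tbr1, Bcl11b and Etv1 stand at 0.26 to 0.45 and Fezf2 at 0.05.

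The genotype estimates rested on these libraries. Without wild type replicate 3 the members had a median log2 fold change of -0.13, and without duplication replicate 1 it was -0.22. Without wild type replicate 2 it was -0.51, and Tbr1 (-0.85, edgeR adjusted p = 0.00217), Bcl11b (-0.51, 0.0235) and Etv1 (-0.43, 0.00553) passed as lower, in a fit that called 15.3% of all genes. The adjusted p of Tbr1 ranged from 0.00217 to 0.999 over 17 alternatives.

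Other genes of the deep layers showed how far this pattern reached. Of 18 other layer 6 and layer 6b genes 17 were tested, 0 passed in edgeR (5 at an unadjusted p under 0.05, 4 of them lower), and the median log2 fold change was -0.23. Wild type replicate 3 was the highest library for 12 of these 17, and the list lay at 0.47 there, against -0.16 to 0.04 in the other 5 libraries. Zfpm2, a cofactor of GATA factors, was at -0.97 ± 0.25 and Osr1, a zinc finger gene with a mean of 0.597 CPM in wild type, at 0.97 ± 0.33. Without wild type replicate 3 the median of the list was -0.05. Of 18 other layer 5 genes 0 passed (3 at an unadjusted p under 0.05), the median was -0.05 and wild type replicate 3 was highest for 5. Sulf2, an extracellular sulfatase, was at -0.28 ± 0.10 and Parm1 at -0.46 ± 0.17. In the fit without wild type replicate 2, 4 of 18 other layer 5 genes and 2 of 17 other layer 6 and 6b genes passed as lower. That fit called 1676 of all 15712 tested genes lower.

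Markers of the superficial layers were mostly low in the library where the members were high. Of 18 such genes 0 passed (2 at an unadjusted p under 0.05), the median log2 fold change was 0.03, and wild type replicate 3 was the lowest library for 11 of 18, as for 20.1% of all tested genes. Lhx2, a LIM homeobox factor, was at 0.25 ± 0.08 and Mdga1 at -0.50 ± 0.18. The level of the 9 members minus that of the superficial genes was -0.11, -0.07 and 0.69 (log2) across wild type replicates 1 to 3 and -0.37, -0.17 and 0.02 across duplication replicates 1 to 3. The groups overlapped in this difference, and its range within wild type was wider than that within the duplication group.

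Oligodendrocyte markers were highest in the same library. All 9 had their highest value in wild type replicate 3, where the list lay at 0.55, and 8 of 9 had their lowest in duplication replicate 2. Summed, they stood at 1461 to 2518 CPM in wild type and 1312 to 1772 CPM in duplication libraries, 0 of 9 passed, with 0 at an unadjusted p under 0.05, and the median log2 fold change was -0.35, or -0.12 without wild type replicate 3. Mag was at -0.40 ± 0.18 and Mobp at -0.42 ± 0.21, both components of myelin. The part of white matter content in the members' values was not tested.

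Bcl11b and Foxp2 are also expressed in striatal neurons. Of 12 striatal markers 0 of 9 tested passed, with 0 at an unadjusted p under 0.05, and the median log2 fold change was -0.04. The striatal factors Isl1 and Six3 had 0 counts in all 6 libraries. Summed striatal markers were at 201.7 to 235 CPM in wild type and 198.7 to 218.8 CPM in duplication libraries. Penk was at -0.30 ± 0.14 and Drd1, which layer 6 also expresses, at -0.24 ± 0.16.

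The summed level of meningeal fibroblast markers did not overlap between the genotypes. Neither did the mean centred log2 level of the annotation classes named below. Of 10 meningeal markers 0 passed in edgeR, 8 had an unadjusted p under 0.05, all with higher estimates, and the summed level was 27.9 to 38.0 CPM in wild type and 43.5 to 85.0 CPM in duplication libraries. Myoc was at 1.37 ± 0.21 and Ogn at 1.92 ± 0.35. Transcripts of the annotation classes TEC (unspliced clusters of expressed tags) and sense intronic, 290 genes together, averaged 0.47, 0.00 (rounded) and 0.53 for wild type replicates 1 to 3 and -0.44, -0.43 and -0.13 for duplication replicates 1 to 3. Tbr1, Bcl11b and Etv1 shared with them the high values of wild type replicates 1 and 3 and the lower value of replicate 2. An edgeR fit with this level as a covariate turned the sign of 7 members, and the median of the 9 was 0.23 and 0 passed. The groups did not overlap in this level, with duplication libraries below wild type, and in 6 libraries it and the genotype cannot be told apart.

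**Figure D4:**
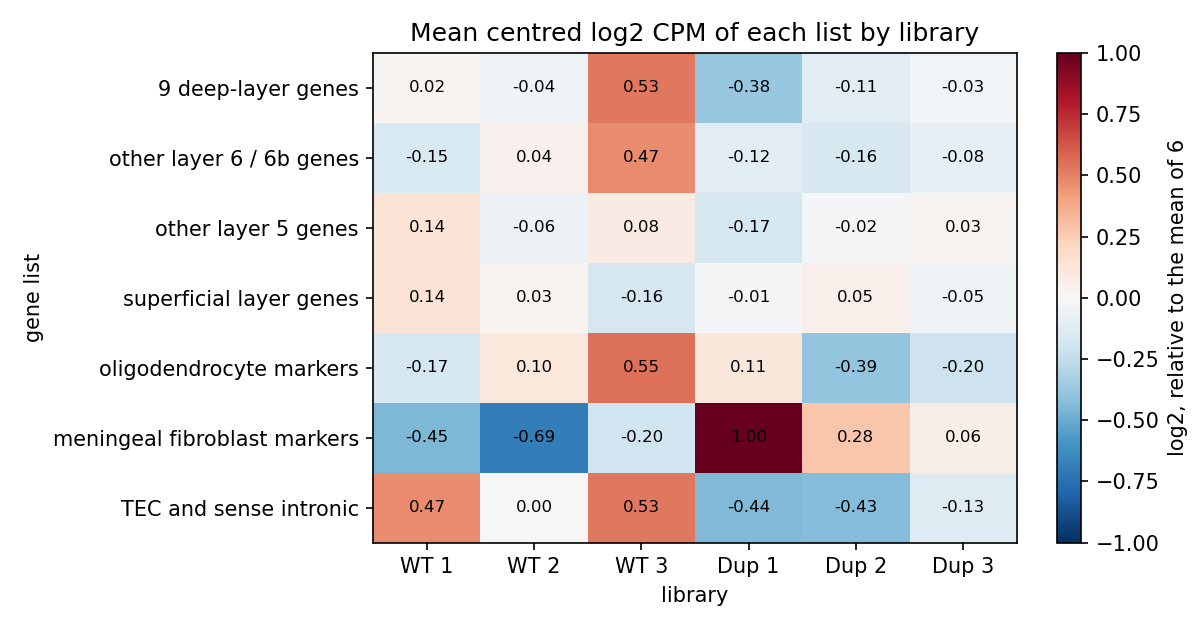
Mean log2 CPM of each gene list relative to the mean of the 6 libraries (colour and printed value) by list (rows) and library (columns; WT, wild type, Dup, duplication). The 9 deep-layer genes, the other layer 6 genes and the oligodendrocyte markers are highest in wild type replicate 3, at 0.47 to 0.55. The TEC and sense intronic classes are also highest there, at 0.53, and superficial genes are lowest there, at -0.16.

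Among 22 regulators of projection neuron identity 21 were tested and 0 passed in edgeR, with 8 at an unadjusted p under 0.05, 7 of them lower, and a median of -0.02. Without wild type replicate 2, 6 of 22 passed as lower, in a fit that called 1676 of all 15712 tested genes lower. Bcl11a, the paralog of Bcl11b that acts in upper and deep layers, was at -0.60 ± 0.16 and Zfpm2, also a layer 6 gene, was at the value given above. Of 17 paralogs of the members 14 were tested and 0 passed, with 4 at an unadjusted p under 0.05, all lower, and a median of -0.18. In that same fit without wild type replicate 2, 5 of 15 passed the adjusted threshold as lower, where 1676 of all 15712 tested genes did. Syt9, a synaptotagmin, was at -0.54 ± 0.14.

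The genes outside the members whose library profile lay nearest to the members' mean were Jup, Ptpru, Lman2l, Ago3 and Prrt3, with root mean square differences of 0.05 to 0.07 on the log2 scale over 6 libraries. Jup, plakoglobin of cell junctions, lay at 0.56 in wild type replicate 3 and -0.30 in duplication replicate 1, where the members' mean was at 0.53 and -0.38. None of the 5 is a marker in the layer lists.

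**Figure D5:**
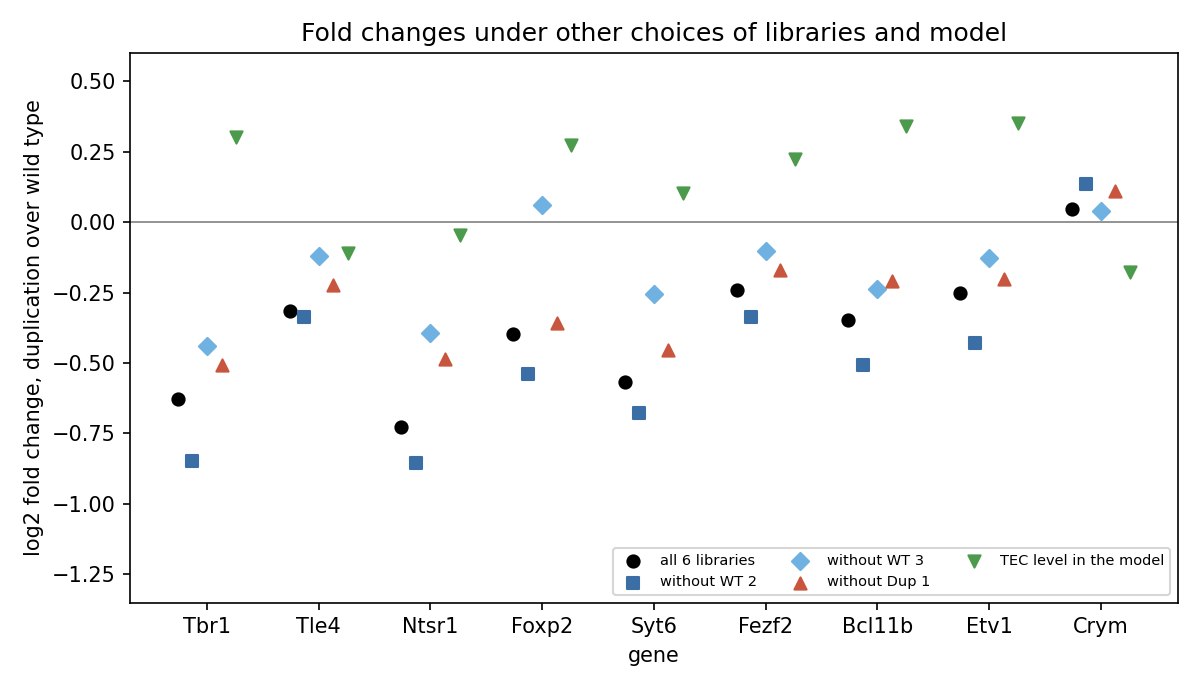
Log2 fold change of duplication over wild type (vertical axis) for each member with all 6 libraries, without wild type replicate 2 or 3 (WT 2, WT 3), without duplication replicate 1 (Dup 1) and with the mean of the TEC and sense intronic classes as a covariate. Estimates lie nearer to 0 without wild type replicate 3 than with all libraries for the 9 genes, and above 0 for 6 genes with that covariate.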

How the data were processed

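The deposited values are raw gene counts without normalization. The authors gave them as a joint table of 6 libraries and again as a table for each library, with equal values. Per the submitters' processing notes the tools were cutadapt, TopHat2 and HTSeq with build mm10, without versions. The annotation used and whether counting was strand-specific: not given in the sources used here. Per the labels' protocols, Trizol RNA went into stranded total RNA libraries after Ribo-Zero depletion.

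The table has 45807 count lines and 45801 names. The name on a line belongs to the counts 0 to 6 lines further down, with steps taken from the rule that defines the members, whose placement is sure to about 25 lines. Names within 25 lines of a step and 25 names turned into dates were left out, which left 45470 names and 0.909% to 0.954% of counts unnamed. The members lie 340 to 7692 lines from a step. In 83 of 85 windows of 500 lines the offset that best matched counts to protein-coding names was that of the rule. In the other 2 it was a different offset. Positions, classes and exon lengths are from GENCODE M21 of that build, which holds 91.6% of the names used.

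Genotypes were compared by edgeR (version 4.0.16, R version 4.3.3) (TMM factors, filterByExpr, quasi-likelihood F-test, Benjamini-Hochberg adjusted p under 0.05 over all tested genes). Intervals are 95% and come from the edgeR fit, with its dispersion estimated between libraries. The prior count for log2 CPM was 2. Reads were amplified and carry no molecular identifiers, so counts are of reads and not of molecules. The fit was tested on simulated data. DESeq2 1.42.0 and limma 3.58.1 (voom) were alternatives, with other scalings, filters, libraries, covariates and the names as deposited. The members, lists and tests were chosen with earlier results of these data known. Named genes are the members, the 2 genes with the smallest p in each list, Aldoa and Mapk3, and the 5 genes of at least 10 CPM nearest in profile, apart from 1 gene that is not reported here. No per-sample column was left unused.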

Additional observations from a re-analysis of the deposited data

How the results depend on the processing

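Over 18 alternatives the median log2 fold change of the members was negative in 17, and 0.23 with the TEC and sense intronic level as a covariate. Leaving out 1 library gave medians of -0.51 to -0.13 and 0 to 3 members called lower, with 0 called higher. No member was called higher in any of the 18 alternatives, and 0 were called lower in 14. Members called lower were 2 with no low-count filter (Tbr1 and Syt6, edgeR adjusted p = 0.00617 and 0.0299), 1 with DESeq2 and 3 with both libraries numbered 2 left out (Tbr1, Bcl11b and Etv1). Over all genes, calls were 173 higher and 843 lower with no low-count filter, 46 and 239 with DESeq2, and 230 and 1090 with both libraries numbered 2 left out. Without a single library they were 0 to 730 higher and 0 to 1676 lower, the upper values without wild type replicate 2. The cause was not tested.

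The replicate block gave 6 higher and 1 lower gene over all genes, 0 members and a members' median of -0.32. Deviations from the group means of same-numbered libraries correlated at 0.102, 0.063 and 0.311, and wild type replicate 2 correlated best with duplication replicate 1 (0.157), while wild type replicates 1 and 3 correlated best with their own number. From the side of the duplication group, replicates 2 and 3 correlated best with their own number. Same-numbered libraries were also alike in Xist and Ddx3y. The labels tie them to no shared animal, litter or day, so they were not treated as pairs. Whether they are pairs cannot be told from these correlations.

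Of 157 single-gene values under alternatives, 138 kept direction and side of the threshold, 9 passed it and 10 turned sign. With that covariate Tbr1 was at 0.30, Foxp2 at 0.27, Fezf2 at 0.23, Bcl11b at 0.34, Etv1 at 0.35, Syt6 at 0.10 and Crym at -0.18. Leaving out 1 library gave Foxp2 values of -0.63 to 0.0603, positive without wild type replicate 3, and Crym values of -0.0335 to 0.14, negative without wild type replicate 1 and at -0.0157 without duplication replicate 2. Scaling by upper quartile or library size turned the sign of 0 members, and sex (Xist counts above 100) as a covariate gave a median of -0.35. With names as deposited 4 members could be tested. Of these, the name Crym stood beside another line, with 1723 counts against 10308 on its own. The value of 0.32 found there is among the 157 but does not describe Crym. Depth limited Ntsr1, with 47 to 97 counts per library.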

Other observations

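Markers of other cell classes were given the same test. Of 8 markers shared by excitatory cells of all layers 0 passed in edgeR, with 2 at an unadjusted p under 0.05, and the median log2 fold change was -0.09. Nptx1, a secreted pentraxin of synapses, was at -0.50 ± 0.15. Without wild type replicate 2, 3 of these 8 passed as lower, as did 1676 of all 15712 tested genes. Of 10 interneuron markers 0 passed, with 1 at an unadjusted p under 0.05, and the median was -0.13, with Lhx6 at -0.30 ± 0.12 and Npy at 0.19 ± 0.11.

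Glial markers other than those of oligodendrocytes had small positive values. All 6 astrocyte markers had higher estimates in the duplication libraries, with a median of 0.13, 0 past the edgeR threshold and 1 at an unadjusted p under 0.05. Aldh1l1 was at 0.19 ± 0.08 and Slc1a3 at 0.18 ± 0.08. The 6 microglia markers had a median of 0.08, with 0 past the threshold and 0 at an unadjusted p under 0.05. Summed, they stood at 211.3 to 240 CPM in wild type and 240.8 to 248.4 CPM in duplication libraries, which narrowly did not overlap. Taken singly, 0 of the 6 had groups that did not overlap, where 22.2% of all tested genes did. P2ry12 was at 0.20 ± 0.09 and Cx3cr1 at 0.11 ± 0.08. Of 9 markers of thalamus and olfactory bulb 6 were tested and 0 passed, with 1 at an unadjusted p under 0.05 and a median of -0.30. Rgs16 was at -0.49 ± 0.16 and Cdhr1 at -1.11 ± 0.60. Cdhr1 was at 18.2 CPM in wild type replicate 1 and at 2.5 to 7.2 CPM in the other libraries. The summed list was at 55.9, 35.5 and 34.2 CPM across wild type replicates 1 to 3 and at 27.6 to 38.1 CPM in duplication libraries. The part of olfactory bulb tissue in these values was not tested.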
